A study of Mus musculus with 6 samples.

Results

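The 10 genes Gfap, Gja1, Slc1a2, Slc1a3, Glul, Aldoc, Aldh1l1, Aqp4, S100b and Fgfr3 are commonly used as marker genes of astrocytes, and they were taken by name from the 22651 genes listed in each of the 6 gene tables of mRNA-sequencing of mouse telencephalon, the anterior forebrain. The mice, 3 WT and 3 TSC1, were all at postnatal day 0. WT mice carried the genotype TSC1 flox/flox;Emx1 +/+, so both copies of Tsc1 were floxed but no Cre recombinase was present. TSC1 mice were TSC1 flox/flox;Emx1-cre/+, and the homozygous floxed allele was therefore common to both groups. The Cre in this model is made where Emx1 is active in the embryonic dorsal cortex, so the dissected telencephalon of a TSC1 mouse also held cells in which Tsc1 was not deleted.

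Astrocytes are glial cells that take up glutamate and potassium released by neurons, supply neurons with metabolites, couple to each other through gap junctions and cover blood vessels with their endfeet. In the rodent cortex they arise mostly from radial glia around and after birth, so that many genes read as astrocyte markers in the adult are already active in radial glia in the newborn. Tsc1 encodes hamartin, a subunit of the complex that restrains the growth kinase mTORC1, and astrocytes with altered shape and raised GFAP staining belong to the known pathology of tuberous sclerosis. The comparison of TSC1 with WT asks how the messages of such genes stood at birth when Tsc1 was lost in this lineage.

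The starts of 4 of these genes are shown because they belong to the 3 genes that rose (Gfap, Aldoc and Glul) and to Gja1, the gene with the lowest log2 fold change of the 10. Each is the 250 bases upstream of a RefSeq transcript start in GRCm38.p6, the assembly of mm10, written 5' to 3' on the strand of the gene. Gfap lies at chr11:102887336-102900912 on the minus strand, and the bases shown for it are chr11:102897201-102897450, inside the annotated gene because longer transcripts start further upstream. Gja1 lies at chr10:56377330-56402513 on the plus strand with bases chr10:56377050-56377299 shown, which hold no annotated exon. Aldoc lies at chr11:78322968-78327781 on the plus strand, and of its 2 RefSeq starts in the table the downstream one, which lies within 25 bases of a GENCODE start, is shown, with bases chr11:78323948-78324197, which overlap an exon of a retained-intron transcript of Aldoc. Glul lies at chr1:153899944-153909723 on the plus strand with bases chr1:153899679-153899928 shown, which overlap an exon of a retained-intron transcript of Teddm2 on the other strand and the first bases of the microRNA gene Mir8114. Capitals mark exact matches, on either strand, to the letters of a site of the STAT factors (TTCNNNGAA), of nuclear factor I (TTGGC), of AP-1 (TGANTCA), of CREB at the cyclic AMP response element (TGACGTCA), of ATF4 at the core of an amino acid response element (TGATGNAA), of Sp factors at the GC box (GGGCGG), of the TATA-binding protein (TATAAA) or of NF-Y (CCAAT).
Gfap: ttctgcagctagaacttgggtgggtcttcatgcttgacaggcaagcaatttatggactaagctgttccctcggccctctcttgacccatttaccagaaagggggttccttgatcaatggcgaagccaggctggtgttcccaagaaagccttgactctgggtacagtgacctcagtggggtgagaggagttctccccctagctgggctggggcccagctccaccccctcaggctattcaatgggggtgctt
Gja1: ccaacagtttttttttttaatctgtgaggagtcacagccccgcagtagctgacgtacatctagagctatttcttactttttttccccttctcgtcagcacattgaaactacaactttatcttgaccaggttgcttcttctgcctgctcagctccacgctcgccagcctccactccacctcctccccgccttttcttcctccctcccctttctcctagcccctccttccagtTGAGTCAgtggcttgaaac
Aldoc: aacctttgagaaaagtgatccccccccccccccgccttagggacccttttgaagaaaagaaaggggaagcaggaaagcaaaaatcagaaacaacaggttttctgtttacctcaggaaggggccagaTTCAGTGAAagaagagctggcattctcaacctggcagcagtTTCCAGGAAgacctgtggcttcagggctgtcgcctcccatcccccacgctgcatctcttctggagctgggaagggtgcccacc
Glul: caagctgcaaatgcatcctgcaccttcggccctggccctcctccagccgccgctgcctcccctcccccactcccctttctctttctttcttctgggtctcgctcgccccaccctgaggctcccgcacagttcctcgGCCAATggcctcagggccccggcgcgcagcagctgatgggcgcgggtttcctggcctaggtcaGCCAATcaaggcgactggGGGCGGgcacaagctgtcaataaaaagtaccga
The Gfap sequence held none of these 8 letter patterns. An E-box (CANNTG), found in 66.2% of promoter sequences and not capitalised, was absent from the Gfap and Aldoc sequences, present at -23 to -18 in Gja1, where it overlaps the AP-1 site, and present in Glul at -243 to -238 and -85 to -80. The Gja1 sequence held 1 AP-1 site, TGAGTCA, at bases -19 to -13 from the start, a pattern found in 6.75% of the 32851 promoter sequences of the same length. The Aldoc sequence held 2 STAT sites, at -124 to -116 and at -83 to -75, and 7.02% of all promoter sequences held at least 1. The 250 bases before the other Aldoc start held no STAT site, but 1 nuclear factor I site and 1 GC box. The Glul sequence held 2 NF-Y sites, each overlapping a nuclear factor I site, and 1 GC box at -33 to -28, patterns present in 33.8%, 41.5% and 32.7% of promoter sequences. These are matches of letters in a short stretch and say nothing of whether a factor binds there or further away. Promoter sequences were given for 9 of the 10 genes.

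Expected counts summed to between 14119365 and 17772865 per sample, and 13969 genes were abundant enough to test. Values are given as TPM, the level of a transcript scaled to all transcripts of the sample and corrected for length, and changes as the log2 fold change of TSC1 over WT from edgeR, with its standard error (SE). A gene was called when its Benjamini-Hochberg adjusted p over all tested genes was below 0.05, which held for 212 genes. Tsc1, the targeted gene, was at 50.2, 32.0 and 28.4 TPM in WT and at 27.1, 21.7 and 22.4 TPM in TSC1 replicates 1, 2 and 3. Its groups did not overlap, but with a log2 fold change of -0.66 (SE 0.18, edgeR adjusted p = 0.10) it was not called. DESeq2 called it, with a log2 fold change of -0.65 and an adjusted p of 0.00309. In this model Cre removes only some exons of Tsc1, while these values are for the whole gene. They therefore do not measure the deletion itself. On a principal component analysis, component 1 (47.7% of variance) placed TSC1 replicate 3 at -3.95, nearest to WT replicate 1 at -7.43 and apart from the other TSC1 replicates at 26.5 and 30.3. Component 2 (19.2%) set TSC1 replicate 3 and WT replicate 1 apart, at -18.0 and 26.1. Tubb3, a neuronal tubulin, was between 4068 and 4707 TPM in all samples, and the share of message from neurons was not estimated. The tissue was sequenced in bulk, so fewer cells of a type and less RNA per cell cannot be told apart.

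All 10 astrocyte genes passed the filter on low counts. Gfap, Aldoc and Glul rose in TSC1, which is 3 of 10 where 0.859% of all tested genes were called higher. The 10 genes were chosen with earlier results of these data known, so this comparison of shares is not a test. Of the 10, 0 were called lower by edgeR, by DESeq2 or by limma, where edgeR called 0.659% of all tested genes lower, and at an unadjusted p below 0.05 edgeR gave 2, Gja1 and Slc1a3. The share of all tested genes at that unadjusted cut was not worked out, for these genes or for the lists below. Such counts are a description only. The log2 fold changes were above 0 in 5 genes and below 0 in the other 5, with a median of 0.07 beside -0.003 over all tested genes. The TPM of the 2 groups did not overlap in the same 3 genes, all higher in TSC1, and overlapped in 7, where 12.3% of all tested genes were separated upwards and 10.3% downwards. Without WT replicate 2, WT replicate 3, TSC1 replicate 1 or TSC1 replicate 2, the genes of the 10 called higher numbered 0, 1, 0 and 1, and all genes called numbered 29, 35, 37 and 37. Without TSC1 replicate 3, which lay nearest to WT on component 1, 799 genes were called and the 3 astrocyte genes remained among them. Over all tested genes DESeq2 called 640, limma on log2(TPM + 1) called 277, and edgeR called 447 without WT replicate 1. The list counts below from those fits are to be read beside these numbers. The summed TPM of the 10 genes was 863 to 1078 in WT and 1027 to 1149 in TSC1.

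**Figure D1:**
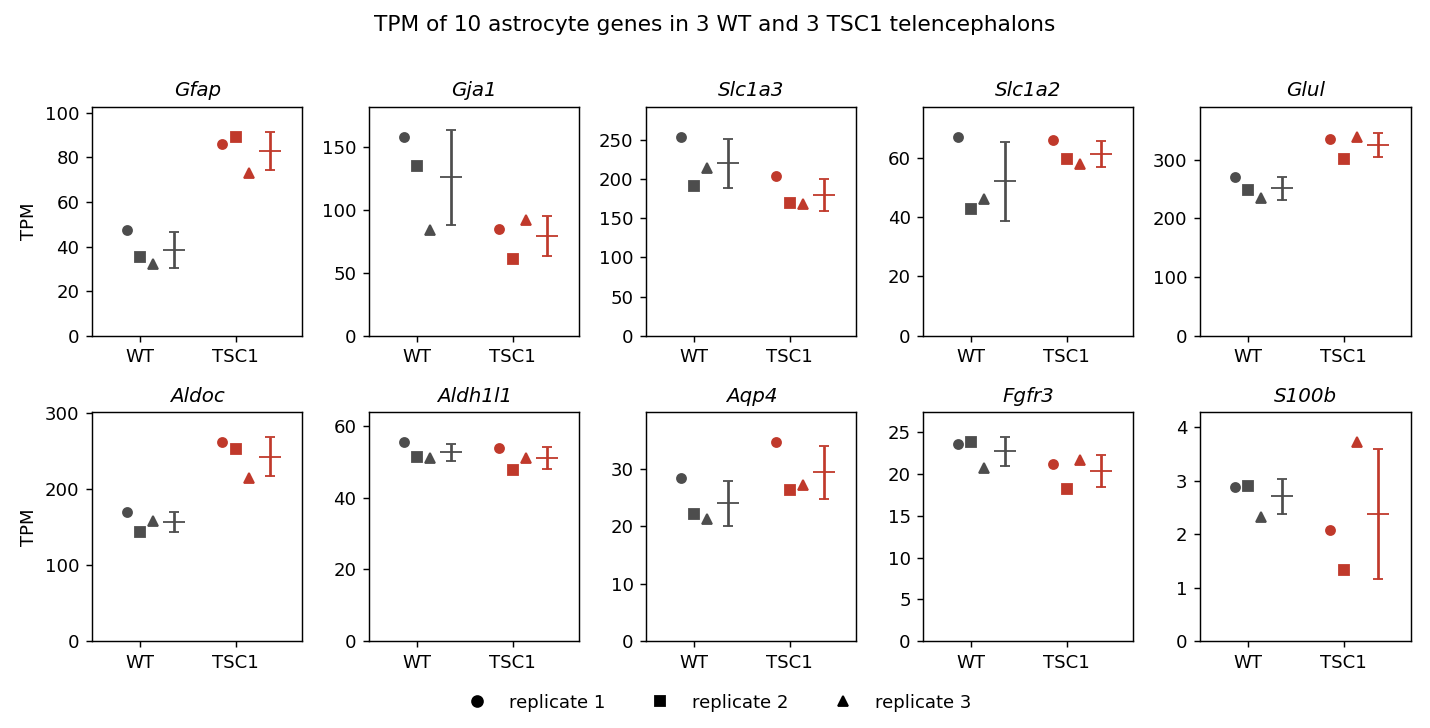
TPM of each of the 10 astrocyte genes (vertical axes from 0) in the 3 WT (grey) and 3 TSC1 (red) telencephalons, with a marker shape for each replicate and the group mean ± SD beside the points. The red points lie wholly above the grey ones for Gfap, Glul and Aldoc, and the groups overlap in the other 7 panels.

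Gfap encodes the intermediate filament protein of astrocytes and is the usual measure of their reactivity. It was at 47.5, 35.4 and 32.0 TPM in WT replicates 1, 2 and 3, and at 86.2, 89.4 and 73.1 TPM in TSC1 replicates 1, 2 and 3. The lowest TSC1 value was thus above the highest WT value, and WT replicate 1 was the highest of its group. The means were 38.3 ± 8.15 TPM in WT and 82.9 ± 8.62 TPM in TSC1 (SD, n = 3). Gfap rose by 1.09 on the log2 scale (SE 0.13, edgeR adjusted p = 0.00683), a fold of 2.13 with a 95% interval of 1.73 to 2.61, and its log2 fold change ranked 58th of the 13969 tested genes. The counts behind these values ran from 453 to 1232 reads per sample, and the mean transcript length assigned to the gene stayed between 2707 and 2710 bases. Without WT replicate 2 the log2 fold change was 1.04 and the adjusted p 0.056, and without TSC1 replicate 1 it was 1.08 with an adjusted p of 0.062, so the call was lost although the size was not.

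Gja1 encodes connexin 43, the main gap junction protein of astrocytes, which is also made by radial glia, meningeal and vascular cells. It stood at 158, 134 and 84.2 TPM in WT and at 84.7, 60.9 and 91.7 TPM in TSC1. WT replicate 3 lay below 2 of the 3 TSC1 samples, so the groups overlapped, and the spread within WT (126 ± 37.7 TPM, SD, n = 3) was the widest in TPM of the 10 genes. The TSC1 mean was 79.1 ± 16.2 TPM (SD, n = 3). With a log2 fold change of -0.69 (SE 0.21, 95% interval -1.15 to -0.22) Gja1 had an unadjusted p of 0.00875 and an edgeR adjusted p of 0.130, and was not called. Across the 15 alternative settings its log2 fold change ranged from -0.89 to -0.52 and its adjusted p from 0.057 to 0.375, and none called it.

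By summed TPM, markers of pericytes and meningeal fibroblasts, cells that can also make connexin 43, ranked the samples much as Gja1 did. Their summed TPM was 434, 428 and 291 in WT and 287, 202 and 361 in TSC1, so that both measures were highest in WT replicate 1, next in WT replicate 2, then in TSC1 replicate 3, and lowest in TSC1 replicate 2. Of the 10 markers, 9 had a log2 fold change below 0, 0 were called by edgeR, DESeq2 or limma, 3 had an unadjusted p below 0.05, and none was at 0 in all samples. Without TSC1 replicate 3 edgeR called 4 of them, and 799 genes in all. Among the markers Pdgfrb, Rgs5 and Kcnj8, markers of pericytes, had log2 fold changes of -0.21, -0.32 and -0.49. Taken singly, these 3 did not follow the order of the sum. Rgs5 was lowest in TSC1 replicate 3 at 65.4 TPM, and Pdgfrb and Kcnj8 were highest in WT replicate 2 at 23.7 and 12.5 TPM. The list was 1 of 15, and the order of samples in the others was not compared with Gja1. The part of these cells in the Gja1 values was not tested.

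Set against each other within each sample, Gfap reached 0.301, 0.263 and 0.38 of the Gja1 TPM in the WT replicates and 1.02, 1.47 and 0.797 of it in the TSC1 replicates. On the log2 scale the ratio was -1.73, -1.93 and -1.39 in WT, with a mean of -1.68 ± 0.27, and 0.02, 0.55 and -0.33 in TSC1, with a mean of 0.08 ± 0.44 (SD, n = 3). The 2 groups were apart, by 1.77 between the means, and the pair was chosen with these values known, so no test was made. TSC1 replicate 2 had the highest Gfap and the lowest Gja1 of all samples, and TSC1 replicate 3 came nearest to WT.

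**Figure D2:**
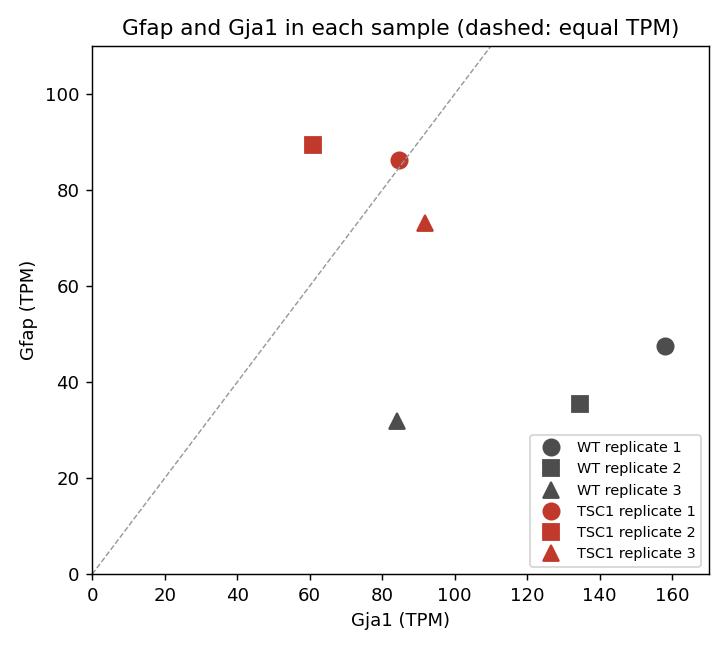
TPM of Gfap (vertical axis) against TPM of Gja1 (horizontal axis) in each sample, with WT in grey, TSC1 in red and a dashed line where the 2 genes are equal. WT samples lie far below the line with Gfap at 32.0 to 47.5 TPM, TSC1 samples lie near it with Gfap at 73.1 to 89.4 TPM, and on the Gja1 axis WT replicate 3 falls among the TSC1 samples.

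Slc1a3 and Slc1a2 encode the glutamate transporters GLAST and GLT-1, of which the first is abundant in radial glia and the second is typical of maturing astrocytes. Slc1a3 was at 254, 192 and 214 TPM in WT and 204, 169 and 168 TPM in TSC1. WT replicate 2 fell below TSC1 replicate 1, so the groups overlapped, and the log2 fold change of -0.31 (SE 0.10, edgeR adjusted p = 0.149) did not pass. Slc1a2 was at 67.1, 42.8 and 46.1 TPM in WT and 66.1, 59.6 and 57.8 TPM in TSC1. WT replicate 1 was the highest of the 6 samples and the other WT replicates were the lowest, and the log2 fold change was 0.21 (SE 0.13, edgeR adjusted p = 0.436). Without WT replicate 1 the log2 fold change of Slc1a2 was 0.40 with an adjusted p of 0.035, so this 1 library decided whether Slc1a2 was called.

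Glul encodes glutamine synthetase, which turns the glutamate taken up by astrocytes into glutamine. It was at 271, 248 and 234 TPM in WT and at 335, 302 and 339 TPM in TSC1. Every TSC1 sample lay above every WT sample, and TSC1 replicate 3, which stood nearest to WT on principal component 1, had the highest Glul of all. Glul rose by 0.35 on the log2 scale (SE 0.07, edgeR adjusted p = 0.0479), a fold of 1.27 with a 95% interval of 1.14 to 1.42, and the means were 251 ± 18.9 TPM in WT and 325 ± 20.5 TPM in TSC1 (SD, n = 3). This call lay close to the threshold. With upper quartile normalization the adjusted p was 0.067, and it was 0.203, 0.180, 0.180 and 0.114 without WT replicate 2, WT replicate 3, TSC1 replicate 1 or TSC1 replicate 2.

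Aldoc encodes the brain form of the glycolytic enzyme aldolase, and Aldh1l1 a cytosolic folate enzyme that is used to label astrocytes throughout the brain. Aldoc was at 170, 144 and 158 TPM in WT and at 262, 253 and 214 TPM in TSC1. The groups did not overlap and TSC1 replicate 3 was the lowest of its group, with means of 157 ± 13 and 243 ± 25.3 TPM (SD, n = 3). Aldoc rose by 0.60 on the log2 scale (SE 0.09, edgeR adjusted p = 0.0195), a fold of 1.51 with a 95% interval of 1.32 to 1.73, and without WT replicate 2, WT replicate 3, TSC1 replicate 1 or TSC1 replicate 2 the adjusted p was 0.11, 0.075, 0.126 and 0.097. Aldh1l1 was at 55.4, 51.4 and 51.1 TPM in WT and at 53.9, 47.8 and 51.1 TPM in TSC1. It varied least of the 10 genes relative to its mean in both groups, with coefficients of variation of 4.57% in WT and 6.03% in TSC1, and its log2 fold change of -0.08 had a 95% interval of -0.24 to 0.09 (edgeR adjusted p = 0.629).

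Aqp4 encodes the water channel of astrocyte endfeet, Fgfr3 a fibroblast growth factor receptor of radial glia and early astrocytes, and S100b a calcium-binding protein of mature astrocytes. Aqp4 was at 28.5, 22.2 and 21.3 TPM in WT and at 34.6, 26.3 and 27.2 TPM in TSC1, with WT replicate 1 inside the TSC1 range (log2 fold change 0.27, SE 0.12, edgeR adjusted p = 0.300). Fgfr3 was at 23.5, 23.8 and 20.7 TPM in WT and at 21.2, 18.2 and 21.6 TPM in TSC1, with WT replicate 3 inside the TSC1 range (log2 fold change -0.19, SE 0.10, edgeR adjusted p = 0.345). S100b was the faintest, with 11 to 35 counts per sample. Its TPM was 2.89, 2.91 and 2.33 in WT and 2.08, 1.34 and 3.72 in TSC1, so that TSC1 held both the lowest and the highest sample. At this depth its log2 fold change of -0.20 had a 95% interval of -1.01 to 0.61, which takes in changes of either direction (edgeR adjusted p = 0.805).

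**Figure D3:**
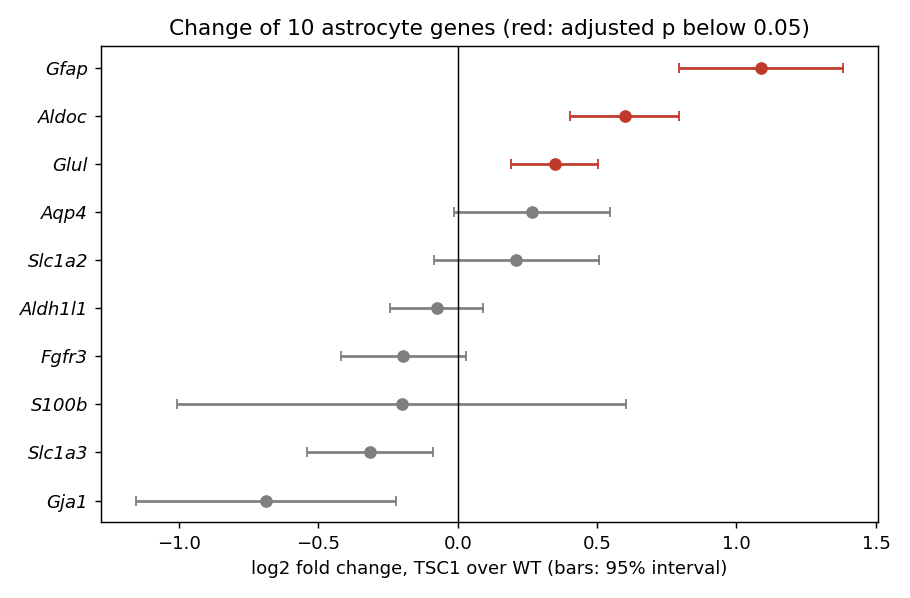
Log2 fold change of TSC1 over WT (horizontal axis, points) with its 95% interval (bars) for the 10 astrocyte genes, sorted from lowest to highest, red where the adjusted p was below 0.05. Gfap at 1.09, Aldoc at 0.60 and Glul at 0.35 are red, and Gja1 at -0.69 has the lowest value and, after S100b, the widest interval.

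By level, the order in WT was Glul, Slc1a3, Aldoc, Gja1, Aldh1l1, Slc1a2, Gfap, Aqp4, Fgfr3 and S100b, from 251 down to 2.71 TPM. Among neighbours in that order the 3 WT samples were fully apart for Slc1a3 over Aldoc, Gja1 over Aldh1l1, Gfap over Aqp4 and Fgfr3 over S100b, and overlapped for the other 5 pairs. In TSC1 the order was Glul, Aldoc, Slc1a3, Gfap, Gja1, Slc1a2, Aldh1l1, Aqp4, Fgfr3 and S100b. There the pairs Gfap with Gja1 and Gja1 with Slc1a2 overlapped and the other 7 pairs of neighbours were apart. Gfap went from rank 7 in WT to rank 4 in TSC1, and Gja1 from rank 4 to rank 5.

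The genes whose log2 CPM (normalized counts, scaled to library size) over the 6 samples were most like those of Gfap, by Pearson's r among 13968 genes, were Cyp1a1, Slc6a17, Snph, Ryr2 and Hsd17b7, with r from 0.998 down to 0.993. Being chosen for likeness to Gfap over these same samples, they are higher in TSC1 by selection, with log2 fold changes from 0.32 for Slc6a17 to 0.70 for Cyp1a1, and no test is given for them. Cyp1a1 was faint, at 0.51 to 1.01 TPM. Among the astrocyte genes Aldoc (r = 0.961, rank 168) and Glul (r = 0.908, rank 550) were the most like Gfap, and Gja1 had an r of -0.640 with it. For Gja1 the most alike were Ildr2, Fkbp9, Yap1, Htra3 and Mst1r, with r from 0.997 down to 0.981, and Fgfr3 was the astrocyte gene most like it (r = 0.935, rank 110). With 6 samples in 2 groups such values are high for many genes and are given as a description.

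Of 34 other astrocyte genes tested, 2 rose and 0 were called lower by edgeR. Over all tested genes edgeR called 0.859% higher and 0.659% lower, shares that also stand beside the list counts below. In this list 6 genes had an unadjusted p below 0.05 and a log2 fold change below 0, and the median log2 fold change was -0.03. Fam107a, an actin-binding protein of astrocytes and radial glia, went from 6.96, 5.63 and 7.04 TPM in WT to 28.2, 18.4 and 24.7 TPM in TSC1. It rose by 1.83 on the log2 scale (SE 0.17, edgeR adjusted p = 0.00226), more than any of the 10 genes, and was called under each of the 15 alternatives. Cst3, the secreted protease inhibitor cystatin C, rose by 0.44 (SE 0.06, edgeR adjusted p = 0.0195) from between 862 and 904 TPM to between 1126 and 1299 TPM. The Cst3 call was lost without WT replicate 2, WT replicate 3, TSC1 replicate 1 or TSC1 replicate 2, at adjusted p from 0.091 to 0.125. DESeq2 called 4 genes of this list and limma 2, where over all tested genes DESeq2 called 640 and limma on log2(TPM + 1) called 277.

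Of 25 radial glia and astroglial progenitor genes 3 fell, where edgeR called 0.659% of all tested genes lower, and 0 were called higher. Their median was -0.15, and at an unadjusted p below 0.05 there were 4 lower and 2 higher. Sox2, a transcription factor of neural stem cells, was at 80.8, 75.3 and 80.0 TPM in WT and 58.1, 55.1 and 60.7 TPM in TSC1, and fell by 0.47 on the log2 scale (SE 0.08, edgeR adjusted p = 0.0297). Id4, an inhibitor of proneural factors, fell by 0.52 (SE 0.10, adjusted p = 0.0402) and Egfr, a growth factor receptor of late progenitors, fell by 0.48 (SE 0.09, adjusted p = 0.0471). All 3 calls were lost without any of WT replicate 2, WT replicate 3, TSC1 replicate 1 and TSC1 replicate 2, at adjusted p from 0.125 to 0.199, and Egfr also without WT replicate 1 at 0.054 and by limma on log2(TPM + 1) at 0.121, with a log2 fold change between -0.56 and -0.43 in each. DESeq2 called 4 genes of the list and limma 2. Vim, the intermediate filament of radial glia and a filament partner of Gfap, was not among them, at 300 to 325 TPM in WT and 288 to 323 TPM in TSC1 (log2 fold change -0.10). Vim was picked out after its values were seen.

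For genes that astrocytes switch on after injury or inflammation, edgeR and limma called 0 of 28 tested and DESeq2 called 1, with a median of -0.17, 3 had an unadjusted p below 0.05, and edgeR called 1 without WT replicate 1. Serpina3n, a secreted protease inhibitor picked out after its values were seen, was at 6.01, 1.64 and 1.2 TPM in WT and 9.96, 9.13 and 13.5 TPM in TSC1. The groups were apart, and its log2 fold change of 1.86 (SE 0.46) had an edgeR adjusted p of 0.079. This was the highest log2 fold change of the 28 tested, of which 18 were below 0 and 10 above. Lcn2, also picked out in that way, reached at most 1.16 TPM and had too few counts to be tested. Of the cytokine, BMP and Notch signalling genes known to act on the Gfap promoter, edgeR and limma called 0 of 26 and DESeq2 called 2, with a median of -0.11 and 7 at an unadjusted p below 0.05, and edgeR called 2 without WT replicate 1 and 3 without TSC1 replicate 3.

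Relatives of each gene were followed by their own lists. Of 10 other intermediate filament genes Nefl, the light neurofilament of neurons, rose by 0.38 on the log2 scale (SE 0.08, edgeR adjusted p = 0.0479), and 0 were called lower, with 0 at an unadjusted p below 0.05 in that direction. DESeq2 called 2 of this list and limma 1, and the Nefl call was lost with upper quartile normalization at an adjusted p of 0.058 and without WT replicate 2, WT replicate 3, TSC1 replicate 1 or TSC1 replicate 2 at 0.126 to 0.192. Of 12 other connexin, pannexin and gap junction partner genes tested, edgeR and limma called 0 and DESeq2 called 1, and 1 had an unadjusted p below 0.05. Gjb6, another connexin of astrocytes, was picked out after its values were seen. It was at 13.1, 13.4 and 9.70 TPM in WT and 12.3, 4.16 and 10.7 TPM in TSC1, which overlapped (log2 fold change -0.44, SE 0.32, edgeR adjusted p = 0.495). Of 13 genes of glutamate uptake and the glutamine cycle 2 fell and 0 were called higher by edgeR, and DESeq2 called 5 and limma 1. At an unadjusted p below 0.05 there were 10 of the 13, 6 higher and 4 lower. The share over all tested genes at that cut was not worked out. Both that fell encode glutamine transporters. Slc38a3 went from 59.0, 60.6 and 53.8 TPM to 46.4, 39.3 and 44.9 TPM and fell by 0.44 (SE 0.09, edgeR adjusted p = 0.0479), and Slc38a5 fell by 0.77 (SE 0.12, edgeR adjusted p = 0.0276). Glul, the enzyme that makes their substrate, rose in the same samples, and a link with the fall of the transporters was not tested. Both calls were lost without WT replicate 2, WT replicate 3, TSC1 replicate 1 or TSC1 replicate 2, at adjusted p from 0.068 to 0.222, and the Slc38a3 call was lost in 9 of the 15 alternatives.

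Of 11 other aquaporin and endfoot genes tested, edgeR called 0, DESeq2 and limma called 1, and 3 had an unadjusted p below 0.05, and without TSC1 replicate 3 edgeR called 2. Of 13 paralogues of Aldoc, Aldh1l1, S100b and Fgfr3 only Aldh1l2, the mitochondrial counterpart of Aldh1l1, was called by edgeR. It was at 39.6, 36.3 and 35.2 TPM in WT and 68.7, 65.1 and 65.8 TPM in TSC1, and rose by 0.82 on the log2 scale (SE 0.06, edgeR adjusted p = 0.000846), with the call kept under each of the 15 alternatives. Aldoa, the aldolase found in most tissues and picked out after its values were seen, was between 289 and 306 TPM in all samples with a log2 fold change of -0.06 (edgeR adjusted p = 0.646).

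**Figure D4:**
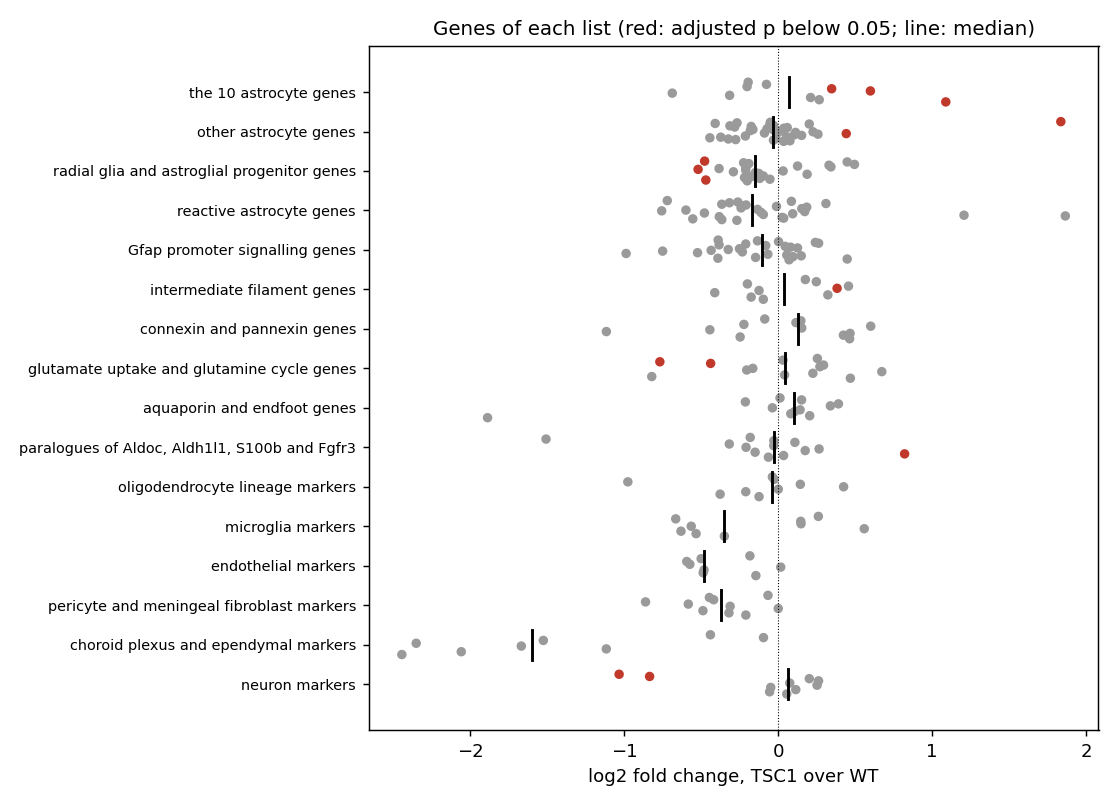
Log2 fold change of TSC1 over WT (horizontal axis) for the tested genes of each list, 1 point a gene, red where the adjusted p was below 0.05, with a black line at the median of the list. The 10 astrocyte genes spread from -0.69 to 1.09. The marker lists of choroid plexus, endothelial, pericyte or meningeal, and microglia cells have medians of -1.60, -0.48, -0.37 and -0.35.

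The other cell types in the tissue were followed by their marker lists. Choroid plexus and ependymal markers summed to 1713, 1186 and 2492 TPM in WT and to 48.5, 128 and 885 TPM in TSC1, and the groups did not overlap. Of 8 tested, edgeR called 0, limma on log2(TPM + 1) called 1, DESeq2 called 3, 6 had an unadjusted p below 0.05, all lower, and Ttr, the secreted carrier transthyretin, was the bulk of the sum at 1652, 1142 and 2411 against 23.9, 102 and 843 TPM. Folr1 and Kl had log2 fold changes of -2.06 and -1.12. The count changed with TSC1 replicate 3, since without it edgeR called 5 of the 8, where it called 799 genes in all. In that fit the log2 fold change of Folr1 was -2.95 (edgeR adjusted p = 0.00297). With no filter on low counts edgeR called 2 markers of this list and 346 genes in all. The part of choroid plexus message in the values of the astrocyte genes was not tested.

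Endothelial markers summed to 207 to 273 TPM in WT and 179 to 210 TPM in TSC1, with 0 of 8 called by edgeR and limma, 3 by DESeq2 and 5 at an unadjusted p below 0.05, all lower. Pecam1, Cldn5 and Kdr had log2 fold changes of -0.14, -0.49 and -0.48. Microglia markers summed to 164 to 209 TPM in WT and 175 to 230 TPM in TSC1, with 0 of 9 called by edgeR, DESeq2 and limma and 4 at an unadjusted p below 0.05, of which 3 were lower and 1 higher. Their log2 fold changes were below 0 in 5 and above 0 in 4, up to 0.56, and those of Csf1r, Cx3cr1 and P2ry12 were -0.35, -0.53 and -0.63. Oligodendrocyte lineage markers summed to 218 to 284 TPM in WT and 208 to 221 TPM in TSC1, with 0 of 9 called by edgeR and limma, 2 by DESeq2 and 3 at an unadjusted p below 0.05, of which 2 were lower and 1 higher. Their log2 fold changes were below 0 in 6 and above 0 in 3, up to 0.43, and those of Pdgfra, Olig1 and Olig2 were -0.12, -0.38 and -0.21. Without WT replicate 1 or without TSC1 replicate 3, edgeR called 1 oligodendrocyte marker, and without TSC1 replicate 3 it called 1 endothelial marker. Neuron markers summed to 10795 to 11163 TPM in WT and 10918 to 12214 TPM in TSC1. Rbfox3, Tubb3 and Map2 had log2 fold changes of 0.06, -0.06 and 0.11, and 2 of the 10 fell, the enzymes of GABA synthesis Gad1 by 0.83 and Gad2 by 1.03 on the log2 scale (edgeR adjusted p = 0.0479 and 0.0318). DESeq2 called 4 of the neuron markers and limma 2, and without WT replicate 2, WT replicate 3, TSC1 replicate 1 or TSC1 replicate 2 the adjusted p of Gad1 and Gad2 was 0.119 to 0.201, with Gad1 at 0.053 without WT replicate 1. No marker in any of these lists was at 0 in all samples, and the part of these cells in the astrocyte gene values was not tested.

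**Figure D5:**
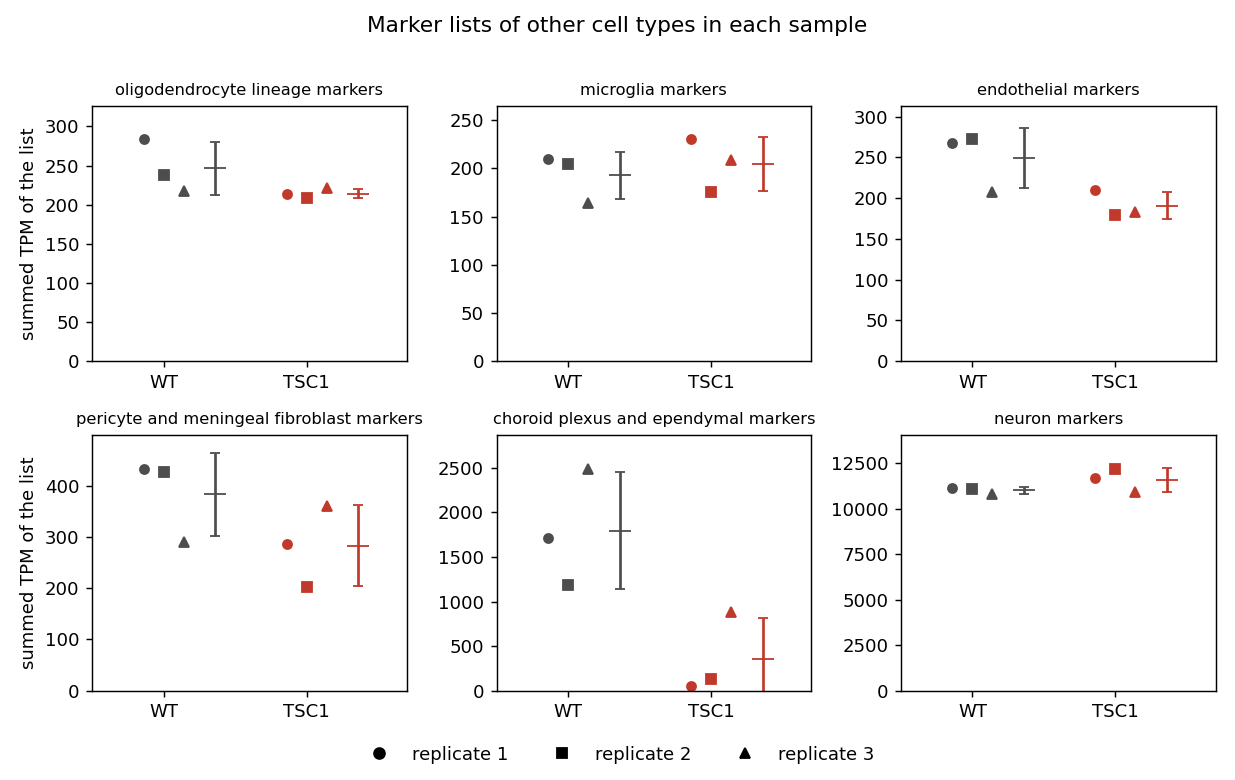
Summed TPM of the marker lists of 6 other cell types (vertical axes from 0) in each WT (grey) and TSC1 (red) sample, with a marker shape for each replicate and the group mean ± SD beside the points, cut off at 0 for choroid plexus. The choroid plexus panel is the only one in which the groups are apart. There the TSC1 samples run from 48.5 to 885 TPM and the WT samples from 1186 to 2492 TPM.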

How the data were processed

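Messenger RNA of the telencephalon of 3 WT and 3 TSC1 mice at postnatal day 0 was sequenced by the authors (paired-end, Illumina), who checked the reads with FastQC, trimmed them, mapped them to the mm10 genome (MapSplice2) and estimated gene abundance with RSEM 1.2.12. Groups came from the genotype labels. The deposited expected count is RSEM's estimate of fragments from a gene, without normalization. The deposited TPM is a share of all transcripts, corrected for effective length, and the deposited FPKM and lengths were read but FPKM was not tested.

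The quasi-likelihood test of edgeR 4.0.16 (R 4.3.3) was run on rounded expected counts (TMM, filterByExpr, Benjamini-Hochberg adjustment over 13969 genes), with 95% intervals from the same fit, after the code was tested on simulated data. TPM was used for levels. Replicates of a group differed by more than sampling noise. Alternatives were RLE and upper quartile normalization, other filters, DESeq2 1.42.0, limma 3.58.1 on log2 TPM with an added 1 or 0.1, effective lengths as offsets, a replicate block, and fits without each single replicate. In the likeness of genes, log2 CPM had a prior count of 2.

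The 10 genes, 15 other lists (242 genes, 10 of them on more than 1 list) and all tests were chosen with earlier results of these data known. Named are the 10 genes, Tsc1, the called genes of each list (at most 8), the first 3 of each marker list, and the 5 genes most like Gfap or Gja1. Vim, Serpina3n, Lcn2, Gjb6 and Aldoa were named outside this rule, after their values were seen. Some genes of the lists were not analysed here. Positions are from GENCODE for GRCm38, counted from 1, and promoter sequences from RefSeq. With 3 samples against 3 an exact permutation test of 1 value cannot go below 0.1, so none was run.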

Additional observations from a re-analysis of the deposited data

How the results depend on the processing

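Of 150 log2 fold changes (the 10 astrocyte genes under 15 alternatives), 136 kept their direction and their side of the threshold, 11 lost a call and 2 gained one, and 1 reversed, S100b, which was at 0.070 without TSC1 replicate 2 and at -0.70 without TSC1 replicate 3. Gfap kept its call in 13 of 15 alternatives, Aldoc in 11 and Glul in 10. When single replicates were omitted, the number of these genes called higher ran from 0 to 4, the log2 fold change of Gfap from 0.99 to 1.24, all genes called from 29 to 799 and genes called over the other lists from 2 to 34, beside 3, 1.09, 212 and 11 with all samples. Only Fam107a and Aldh1l2 of those 11 kept their call in every alternative. All genes called were 346 with no filter, 640 with DESeq2 and 551 with the replicate block, and list genes called were 18, 32 and 26. The difference in log2 ratio of Gfap to Gja1 ran from 1.53 to 1.97. The fits that left 1 sample out had a group of 2. The cause of these shifts was not tested.

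Replicate numbers are shared between the groups but nothing ties them to litters or days. Same-numbered samples correlated in their deviations from the group means at 0.27, -0.13 and 0.32, and not every sample correlated best with its own number, so the numbers were not read as pairs. With the replicate block 1 of the 10 genes was called lower, Slc1a3 (log2 fold change ""-0.31"", adjusted p = 0.037), and the same 3 were called higher. Tsc1 was also called with the block (log2 fold change -0.63, adjusted p = 0.022), as were 5 choroid plexus markers. At this depth S100b, with at most 35 counts in a sample, could not show a change smaller than its interval.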
